A study of Danio rerio with 8 samples.

Results

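Pancreatic cells of zebrafish that carried both a somatostatin and an insulin reporter signal (sst1.1+ins+) were compared with cells that carried the somatostatin signal alone (sst1.1+). The comparison took 6 of the 8 bulk RNA-seq libraries of the series, namely the 3 labelled sst1.1+ins+ and the 3 labelled sst1.1+. The other 2 libraries, labelled ins+, hold cells sorted as carrying the insulin reporter signal and no somatostatin reporter signal. They entered the estimate of the spread between libraries and are given beside the results. All fish of all groups carried the same pair of transgenes, Tg(ins:BB1.0L), driven by the insulin promoter, and TgBAC(sst1.1:memEGFP), which marks sst1.1-expressing cells with membrane EGFP. All were sampled from the pancreas at 30 days post fertilization, with growth labelled as normal and no treatment named. The pancreas was dissociated with enzymes and the cells were sorted by their fluorescence. Libraries were made with Smart-Seq2, which copies whole transcripts and carries no molecular identifiers. Nothing in the labels tells whether libraries of a group come from different fish or different sorts. The p-values therefore cover variation among the libraries, part or all of which may be technical.

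Delta cells of the islet secrete somatostatin, which holds back the release of insulin and glucagon from neighbouring cells. Beta cells secrete insulin when glucose enters them, is metabolized and closes ATP-sensitive potassium channels, after which calcium entry drives the fusion of insulin granules. The identity of each cell type is kept by homeobox and other transcription factors, of which Pdx1 serves both delta and beta cells, Mnx1 and the Nkx6 factors are linked to the beta lineage, and Hhex is linked to delta cells.

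The sst1.1+ins+ libraries held 24276825, 24504469 and 24234927 gene counts and the sst1.1+ libraries 30374029, 24278780 and 23425079. No pair of libraries held identical counts. Across genes, which are not independent replicates, correlations of log2 levels ran from 0.839 to 0.874 within sst1.1+ins+, from 0.834 to 0.843 within sst1.1+ and from 0.815 to 0.860 between the groups. ERCC spike-in RNA took 0.0145 to 0.0236% of counts in sst1.1+ins+ and 0.0244 to 0.0348% in sst1.1+, without overlap. Mitochondrially encoded genes took 3.49 to 4.14% and 2.89 to 3.44%, also without overlap. The part of these shares in the results was not tested. Levels are given below as CPM, the reads of a gene scaled to a common library size by the TMM method, always in the order of replicates 1, 2 and 3. In bulk samples, fewer cells of a type and less RNA per cell cannot be told apart. Nor can cells that carry both signals be told apart here from joined or mixed sst1.1+ and ins+ cells in the sst1.1+ins+ libraries.

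The hormone whose reporter separated the groups gave the smallest p. Insulin (ins) stood at 118140, 115462 and 130687 CPM in sst1.1+ins+ and at 1276, 634 and 1080 CPM in sst1.1+, a log2 fold change of 6.93 ± 0.25 (SE, n = 3 and 3, adjusted p = 1.00e-07). Every sst1.1+ins+ library was far above every sst1.1+ library, and the insulin transcript was not absent from the sst1.1+ libraries. Whether it came from the sst1.1+ cells, from mis-sorted cells or from carried-over RNA was not tested. Somatostatin 1.1 (sst1.1), whose reporter was positive in both groups, stood at 156753, 210063 and 181341 CPM in sst1.1+ins+ and at 293143, 250852 and 298436 CPM in sst1.1+. The groups did not overlap, but the difference missed the threshold (log2 fold change -0.62 ± 0.12, adjusted p = 0.0897). EGFP reads, which belong to the transgene and stayed out of the tests, stood at 3376, 3657 and 3199 CPM against 8081, 8056 and 6433 CPM. The ins+ libraries were not free of either transcript, with 54993 and 43252 CPM of sst1.1 and 198 and 280 CPM of EGFP. The log2 fold change of sst1.1 in sst1.1+ins+ over ins+ was 1.90 ± 0.15 (adjusted p = 9.88e-05). The source of sst1.1 and EGFP reads in ins+ was not tested. As the reporters defined the sort, none of these 3 transcripts is independent of it.

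Of 16418 genes tested, 34 were called at an adjusted p under 0.05 by edgeR's quasi-likelihood test (0.207%). In sst1.1+ins+ 29 were higher (0.177%) and 5 lower (0.0305%), and the median log2 fold change of all genes tested was 0.001. At an unadjusted p under 0.05 there were 1296 genes. The 3 sst1.1+ins+ libraries lay all above the 3 sst1.1+ libraries for 1214 genes (7.39%) and all below them for 1194 (7.27%). These shares are the background for each statement below that groups did not overlap. All 34 called genes were among them, and 14 of the 34 kept their call whichever 1 of the 6 libraries was left out. Calls are made on gaps large beside the spread, so such separation in a called gene adds no support to its call.

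**Figure D1:**
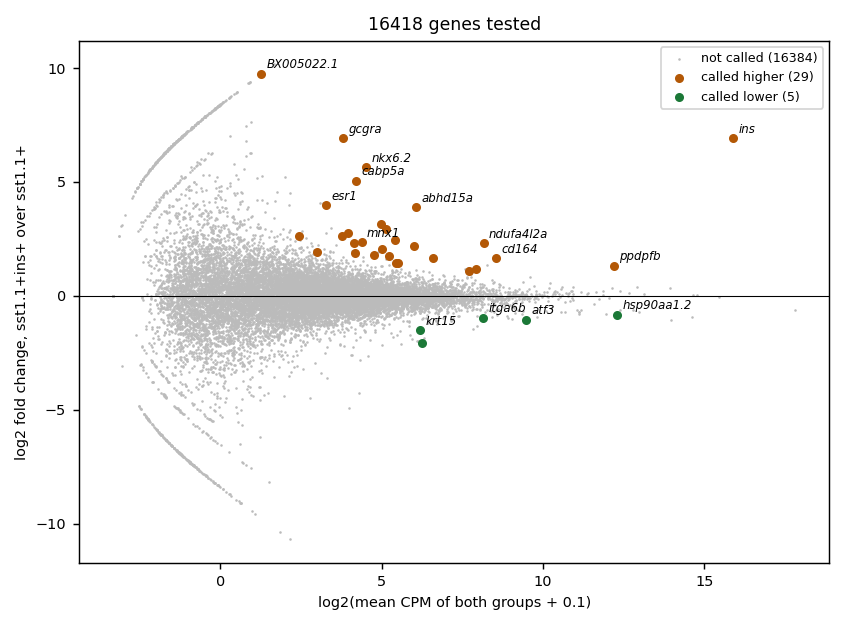
Log2 fold change of sst1.1+ins+ over sst1.1+ (vertical axis) against the log2 mean CPM of both groups (horizontal axis, with 0.1 added), for the 16418 genes tested. The 29 genes called higher (orange) span levels from a few CPM to that of ins, while the 5 called lower (green) changed by at most 2.09 on the log2 scale, and the lines of grey points at the left are genes with counts in few libraries.

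The homeobox transcription factors mnx1 and nkx6.2 were higher in sst1.1+ins+. The beta-cell factor mnx1 stood at 38.5, 41.4 and 24.2 CPM in sst1.1+ins+ and at 5.61, 7.19 and 7.46 CPM in sst1.1+ (log2 fold change 2.36 ± 0.28, adjusted p = 0.00382). Its relative nkx6.2 stood at 43.8, 42.0 and 48.2 CPM against 0.873, 0 and 1.81 CPM, so that the size of its fold rests on 26, 0 and 41 counts in sst1.1+ (log2 fold change 5.65 ± 0.75, adjusted p = 0.00943). Neither gene overlapped between the groups, and the sst1.1+ libraries held almost no nkx6.2. Its log2 fold change was 6.59 without sst1.1+ replicate 3, and without sst1.1+ replicate 1 its adjusted p was 0.0685.

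The estrogen receptor esr1, a transcription factor that binds its hormone in the cell, stood at 23.3, 16.7 and 14.3 CPM in sst1.1+ins+ and at 1.21, 1.06 and 1.15 CPM in sst1.1+. It rose 15.9-fold (log2 fold change 3.99 ± 0.43, adjusted p = 0.00204), with an SD of 4.63 CPM in sst1.1+ins+ and 0.0769 CPM in sst1.1+. A call by limma-voom was missed (adjusted p = 0.0744), while no left-out library ended the edgeR call. A MAF gene listed as MAF (2 of 2), of the family that in mammals drives insulin transcription, stood at 15.16, 23.7 and 17.9 CPM against 0.571, 2.64 and 4.02 CPM and did not pass (adjusted p = 0.0670).

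Of 52 tested endocrine transcription factors, 2 rose (mnx1 and nkx6.2) and 0 fell by edgeR. Groups did not overlap for 8 that lay higher and 7 that lay lower, 15.4% and 13.5% of the list beside 7.39% and 7.27% of all genes, and the median log2 fold change was 0.09. The next smallest p belonged to sox4a, a factor of endocrine differentiation, at 209, 162 and 216 CPM against 92.4, 114 and 118 CPM (log2 fold change 0.86 ± 0.18, adjusted p = 0.108). Its groups were apart. DESeq2 also called sox4a higher and HHEX lower, and limma-voom called mnx1 and sox4a higher. The factors pdx1, isl1, neurod1 and pax6b overlapped between the groups. The level of pdx1 was 1445, 1505 and 1475 CPM against 1657, 1465 and 1117 CPM, a log2 fold change of 0.06 ± 0.14. For isl1, neurod1 and pax6b the log2 fold changes were 0.34 ± 0.18, 0.26 ± 0.15 and 0.07 ± 0.15, with overlapping groups and adjusted p of 0.714, 0.768 and 1.

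Of 20 tested beta-cell genes 3 rose (ins, mnx1 and nkx6.2) and 0 fell, and DESeq2 also called pcsk1 higher. The groups did not overlap for 9 of the 20, those 3 included, all higher in sst1.1+ins+ (45.0% beside 7.39% of all genes), and the median log2 fold change was 0.33. The prohormone convertase pcsk1, which cuts proinsulin, stood at 305, 172 and 288 CPM against 156, 161 and 116 CPM (adjusted p = 0.266), with replicate 2 of sst1.1+ins+ close to the level of sst1.1+. A relative of nkx6.2, nkx6.1, stood at 12.1, 11.9 and 9.56 CPM against 1.65, 1.99 and 5.83 CPM (adjusted p = 0.483). It is on the list of ductal markers used below. The channel subunit kcnj11 of the ATP-sensitive potassium channel stood at 15.9, 7.73 and 16.4 CPM against 6.01, 0.406 and 1.99 CPM (adjusted p = 0.530), and its partner abcc8 at 98.3, 101 and 92.9 CPM against 88.4, 61.5 and 88.6 CPM (adjusted p = 0.825). The glucose transporter slc2a2 was narrowly apart, at 336, 352 and 336 CPM against 265, 300 and 332 CPM (adjusted p = 0.882). The glucokinase gene gck, urocortin ucn3l and g6pcb overlapped between the groups. The listed genes insb and mafa had 0 counts in all 6 libraries, and the beta-cell list holds ins, whose reporter defined the sort.

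The receptor genes gcgra, HRH2, gria3a and gabrb2 rose. The glucagon receptor gcgra, which raises cyclic AMP in beta cells, stood at 31.0, 18.7 and 33.1 CPM in sst1.1+ins+ and at 0.235, 0 and 0.442 CPM in sst1.1+ (log2 fold change 6.92 ± 0.69, adjusted p = 0.00138). As the sst1.1+ values come from 7, 0 and 10 counts, the size of the fold is loose, and without sst1.1+ replicate 3 the log2 fold change was 7.72. The call was missed by limma-voom alone among the alternatives (adjusted p = 0.0797). The histamine receptor HRH2 stood at 54.5, 60.7 and 82.5 CPM against 24.9, 25.3 and 22.0 CPM (2.74-fold, adjusted p = 0.0170). Its call was lost without sst1.1+ins+ replicate 2 or 3 or any sst1.1+ library (adjusted p up to 0.0935).

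Subunits of the AMPA-type glutamate receptor and the GABA-A receptor were low but higher in sst1.1+ins+. The glutamate receptor gene gria3a stood at 9.63, 13.7 and 14.3 CPM against 2.75, 3.86 and 3.27 CPM (3.81-fold, adjusted p = 0.0431). The GABA receptor gene gabrb2 stood at 10.8, 10.1 and 6.84 CPM against 1.18, 1.54 and 1.72 CPM (6.24-fold, adjusted p = 0.0435). Both calls were lost when any 1 of the 6 libraries was left out, with adjusted p of 0.0663 to 0.171 for gria3a and 0.0856 to 0.194 for gabrb2, and also without ins+ replicate 2. The fold change kept its direction in each of those fits. Of 24 glutamate, GABA and glycine receptor genes tested these 2 rose and 0 fell, and of 22 hormone and transmitter receptors gcgra rose and 0 fell. The receptor HRH2 stands on no list. Among the 24 the groups did not overlap for 3 that lay higher and 0 that lay lower (12.5% and 0%). Among the 22 these were 4 and 2 (18.2% and 9.09%). The VIP and PACAP receptor vipr2 came next among the 22, at 63.6, 56.0 and 60.3 CPM against 14.1, 41.9 and 27.1 CPM (adjusted p = 0.317).

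Of 52 ion channel genes tested, 0 were called by edgeR (5 at an unadjusted p under 0.05), 1 by DESeq2 and 0 by limma-voom. The groups did not overlap for 8 that lay higher and 2 that lay lower (15.4% and 3.85%), the latter being 1 with library totals. The potassium channel gene kcnd3 stood at 8.05, 13.3 and 8.62 CPM against 1.65, 2.32 and 5.83 CPM (adjusted p = 0.443). A channel subunit outside that list did rise. The gene si:ch211-247n2.1, which the names table used here gives as KCNMB2, a regulatory subunit of calcium-activated potassium channels in mammals, stood at 25.0, 28.2 and 33.8 CPM against 2.85, 7.43 and 7.24 CPM (4.96-fold, adjusted p = 0.0350). The call was lost without each library but sst1.1+ replicate 1 (adjusted p of 0.0858 to 0.171).

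On the list of 22 calcium-binding proteins cabp5a rose and 0 fell. The genes nptna, rcan2, dgkaa and PKIB (2 of 2) stand on no list and are placed beside it by their known function. The calcium-binding protein cabp5a, a relative of calmodulin, stood at 40.3, 27.1 and 40.2 CPM in sst1.1+ins+ and at 1.48, 0.284 and 1.46 CPM in sst1.1+ (33.2-fold, log2 fold change 5.05 ± 0.56, adjusted p = 0.00219). Neuroplastin nptna, a membrane glycoprotein that in mammals associates with plasma membrane calcium pumps, stood at 54.5, 64.3 and 53.3 CPM against 12.8, 17.8 and 20.9 CPM (3.34-fold, adjusted p = 0.0106). The calcineurin regulator rcan2 stood at 27.9, 24.3 and 32.2 CPM against 8.63, 5.81 and 8.17 CPM (3.73-fold, adjusted p = 0.0134). The groups were apart in all 3 genes. The call of cabp5a held without each library, that of nptna was lost without sst1.1+ins+ replicate 2 or sst1.1+ replicate 2 (adjusted p up to 0.0619), and that of rcan2 without sst1.1+ins+ replicate 1 or 3 or sst1.1+ replicate 2 (up to 0.0743).

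The kinase dgkaa, which turns diacylglycerol into phosphatidic acid, stood at 96.5, 118 and 99.9 CPM against 11.7, 23.6 and 34.4 CPM (4.51-fold, adjusted p = 0.0163). A protein kinase A inhibitor gene listed as PKIB (2 of 2) stood at 53.2, 33.0 and 40.7 CPM against 11.1, 14.5 and 10.7 CPM (3.49-fold, adjusted p = 0.0148). The groups were apart in both, with dgkaa uneven among the sst1.1+ libraries. The call of dgkaa was lost without any sst1.1+ins+ library or sst1.1+ replicate 2 (adjusted p up to 0.103). That of PKIB (2 of 2) was lost without replicate 1 or 3 of either group (up to 0.0887). On the list of calcium-binding proteins the groups did not overlap for 4 that lay higher and 1 that lay lower.

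Of 43 exocytosis genes tested, 0 fell by edgeR and 1 rose, the vesicle GTPase rab3c. Its level was 58.6, 40.9 and 69.6 CPM in sst1.1+ins+ and 8.86, 1.46 and 8.87 CPM in sst1.1+ (8.79-fold, log2 fold change 3.14 ± 0.52, adjusted p = 0.0372). Both groups had their lowest value in replicate 2. The call was lost without each library but sst1.1+ replicate 2 (adjusted p of 0.0853 to 0.168). The active-zone gene rims2a, at 785, 752 and 871 CPM against 544, 482 and 541 CPM, did not pass (log2 fold change 0.62 ± 0.12, adjusted p = 0.0817), nor did the synaptotagmin syt4, which lay lower at 63.8, 63.7 and 52.4 CPM against 93.0, 99.96 and 106 CPM (adjusted p = 0.179). The groups did not overlap for 7 exocytosis genes that lay higher and 5 that lay lower (16.3% and 11.6%), and the latter number was 2 when levels were scaled by library totals. DESeq2 called 5 of the list higher, rab3c and rims2a among them, and 1 lower, syt4. By limma-voom rab3c and rims2a were called higher.

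Of 18 granins and prohormone enzymes tested edgeR called 0, with 6 at an unadjusted p under 0.05. DESeq2 called scg2b and chga lower and cpe and pcsk1 higher, and limma-voom the first 3 of these. The groups did not overlap for 3 that lay lower and 3 that lay higher (16.7% each), and the median was -0.03 on the log2 scale. The granule proteins scg2b (984, 1018 and 983 CPM against 1558, 1462 and 1334 CPM, adjusted p = 0.116) and chga (439, 505 and 486 CPM against 802, 768 and 630 CPM, adjusted p = 0.160) lay lower in sst1.1+ins+. The carboxypeptidase cpe, which trims both prohormones, lay higher at 2125, 2246 and 2269 CPM against 1745, 1680 and 1695 CPM (adjusted p = 0.242). The gamma-synuclein gene listed as SNCG (2 of 2), a protein of nerve terminals in mammals, rose from 50.7, 41.1 and 46.1 CPM in sst1.1+ to 112, 150 and 177 CPM (3.18-fold, log2 fold change 1.67 ± 0.19, adjusted p = 0.00219).

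The hydrolase gene abhd15a, the NDUFA4-like gene ndufa4l2a and the transporter slc38a11 rose. The alpha/beta hydrolase gene abhd15a, whose mammalian relative takes part in insulin's control of fat breakdown, stood at 114, 115 and 144 CPM in sst1.1+ins+ and at 7.96, 10.8 and 6.58 CPM in sst1.1+ (14.7-fold, log2 fold change 3.88 ± 0.22, adjusted p = 1.08e-05). The NDUFA4-like gene ndufa4l2a stood at 509, 406 and 515 CPM against 91.7, 109 and 86.4 CPM (4.99-fold, log2 fold change 2.32 ± 0.15, adjusted p = 3.19e-05). The amino acid transporter slc38a11 stood at 69.5, 53.2 and 62.3 CPM against 10.6, 8.77 and 4.59 CPM (7.70-fold, log2 fold change 2.95 ± 0.30, adjusted p = 0.00138). These 3 calls held in every alternative run, and in each gene the lowest sst1.1+ins+ library was several times the highest sst1.1+ library.

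Of 39 amino acid transporters tested slc38a11 rose and 0 fell by edgeR, while DESeq2 called 3 higher and 1 lower and limma-voom 2 higher. The next smallest p belonged to slc7a14a, which lay lower at 20.3, 13.2 and 24.0 CPM against 40.6, 46.9 and 47.9 CPM (adjusted p = 0.146), and to slc43a2b, which lay higher at 485, 361 and 439 CPM against 236, 248 and 307 CPM (adjusted p = 0.160). A monocarboxylate transporter family gene, slc16a12b, stood at 25.1, 32.2 and 22.4 CPM against 4.40, 6.74 and 9.36 CPM and did not pass (adjusted p = 0.0807).

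Of the called genes on no list, gstp1, gpx3, ttpa and gchfr are described together here for their chemistry, a grouping made after the calls. Glutathione S-transferase gstp1, which couples glutathione to reactive compounds, stood at 309, 272 and 272 CPM against 142, 144 and 112 CPM (2.14-fold, adjusted p = 0.00943). Glutathione peroxidase gpx3, a secreted enzyme that reduces peroxides, stood at 286, 375 and 354 CPM against 127, 176 and 149 CPM (2.25-fold, adjusted p = 0.0145). The vitamin E carrier ttpa stood at 63.0, 47.2 and 46.9 CPM against 17.2, 6.74 and 13.3 CPM (4.22-fold, adjusted p = 0.0168). All sst1.1+ins+ libraries exceeded all sst1.1+ libraries in these genes. The gene gchfr, a feedback regulator of the enzyme that starts tetrahydrobiopterin synthesis, stood at 63.1, 72.8 and 56.8 CPM against 18.8, 30.1 and 21.8 CPM (2.73-fold, adjusted p = 0.0215). The call of gstp1 was lost without sst1.1+ins+ replicate 1 (adjusted p = 0.0624), that of gpx3 without sst1.1+ins+ replicate 2 or 3 or sst1.1+ replicate 1 or 3 (up to 0.0856), that of ttpa without any sst1.1+ins+ library or sst1.1+ replicate 3 (up to 0.0887) and that of gchfr without each library but sst1.1+ replicate 2 (up to 0.107).

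Of 97 nuclear-encoded oxidative phosphorylation genes tested, listed by name pattern, 1 rose, ndufa4l2a, and 0 fell by edgeR. For 26 of them all sst1.1+ins+ libraries lay below all sst1.1+ libraries (26.8% beside 7.27% of all genes) and for 2 above, and the median was -0.17 on the log2 scale. The number lying below was 17 with levels scaled by library totals, where it was 1017 over all genes. The member ndufa4l stood at 239, 195 and 211 CPM against 313, 341 and 304 CPM (log2 fold change -0.57 ± 0.14, adjusted p = 0.179), and uqcrq of complex III at 68.0, 72.0 and 71.4 CPM against 95.3, 107 and 102 CPM (adjusted p = 0.412). DESeq2 called ndufa4l lower and limma-voom did not. The 13 genes encoded in the mitochondrial genome lay the other way, with 6 apart and higher in sst1.1+ins+ (46.2%), 0 apart and lower, a median log2 fold change of 0.21 and 0 calls by edgeR, DESeq2 or limma-voom (4 at an unadjusted p under 0.05). Of these mt-co3 stood at 4711, 5973 and 4408 CPM against 3794, 3990 and 3949 CPM (adjusted p = 0.453). The number apart and higher was 8 with library totals and 7 with totals without hormone and mitochondrial genes. All 13 genes are part of the mitochondrial share given above, which itself did not overlap between the groups. Among 50 glycolysis and TCA cycle genes 0 were called by edgeR, DESeq2 or limma-voom (3 at an unadjusted p under 0.05), 2 lay apart and higher and 3 apart and lower, and the median was 0.00.

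The remaining called rises were ppdpfb, cd164, cxcl14, rbfox3, nell2a and BX005022.1. The gene ppdpfb, one of a zebrafish pair of exocrine differentiation factors, stood at 6161, 7698 and 6334 CPM against 2802, 2548 and 2770 CPM (2.49-fold, log2 fold change 1.31 ± 0.11, adjusted p = 0.000416). The sialomucin cd164 stood at 580, 586 and 537 CPM against 214, 148 and 176 CPM (3.16-fold, log2 fold change 1.66 ± 0.15, adjusted p = 0.000585). The chemokine cxcl14 stood at 61.1, 78.9 and 77.2 CPM against 17.8, 11.3 and 10.3 CPM (5.50-fold, adjusted p = 0.00157). In all 3 genes the groups were far apart for their spread, and their calls held in every alternative run.

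The splicing regulator rbfox3, known as a marker of mature neurons, stood at 20.2, 20.8 and 28.5 CPM against 2.85, 4.22 and 4.11 CPM (6.21-fold, adjusted p = 0.00271), and 0 of the other tested splicing regulators and RNA-binding proteins were called. The secreted glycoprotein nell2a stood at 38.6, 15.9 and 26.7 CPM against 4.30, 5.04 and 2.74 CPM (6.71-fold, adjusted p = 0.0168). Its sst1.1+ins+ libraries were uneven, and the call was lost without each library but sst1.1+ins+ replicate 2 (adjusted p up to 0.0887). The gene listed as BX005022.1, to which no role is given here, had 0 counts in all 3 sst1.1+ libraries and stood at 7.70, 4.46 and 1.61 CPM in sst1.1+ins+. Against a floor of 3 counts per library it was at least 38.8-fold higher (adjusted p = 0.0435), or at least 25.6-fold without sst1.1+ins+ replicate 1, and its call was lost without any 1 of the 6 libraries (adjusted p of 0.0743 to 0.19996).

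**Figure D2:**
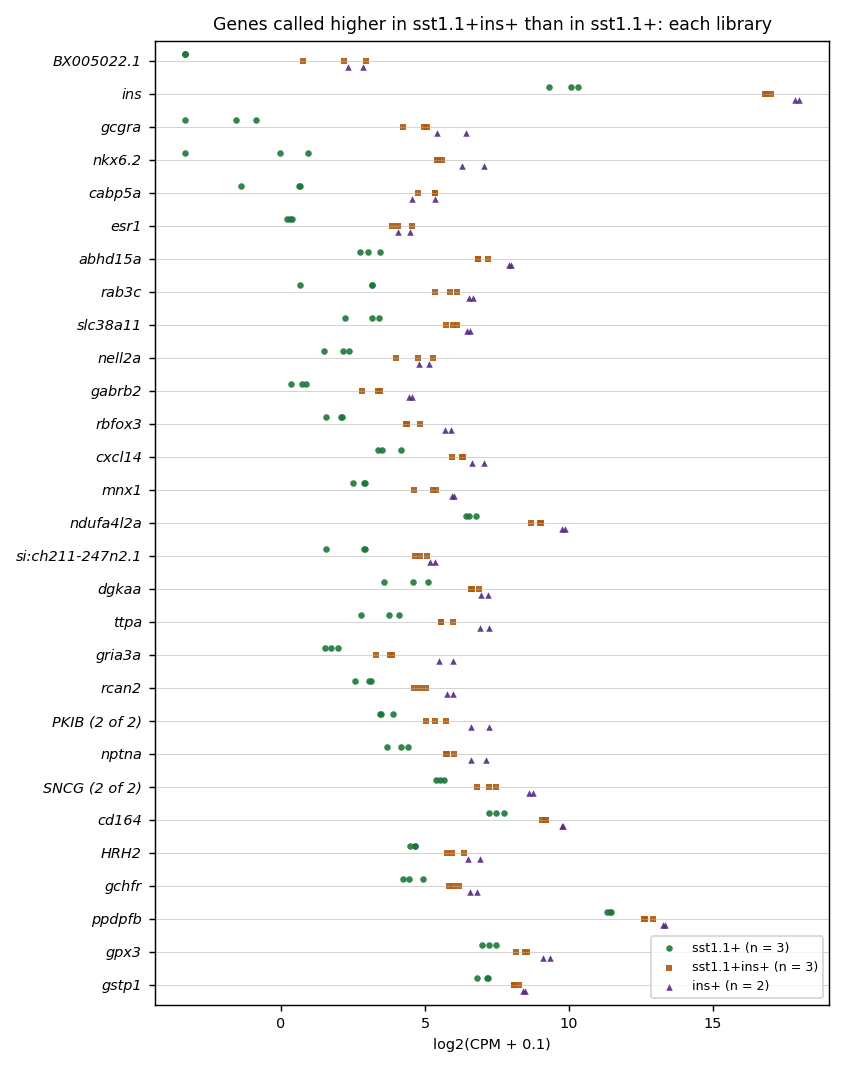
Level of the 29 genes called higher, as log2(CPM + 0.1) on the horizontal axis, with 1 point for each sst1.1+ (green circles), sst1.1+ins+ (orange squares) and ins+ (purple triangles) library. Orange and green points do not overlap in any row, and genes such as ndufa4l2a, cd164 and ppdpfb show gaps that are wide for the spread within a group. The rows were chosen by the test for such gaps, so the plot adds no support to the calls.

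The 5 genes called lower were a chaperone, a keratin, an integrin, a stress-induced transcription factor and 1 gene without an assigned role. The Hsp90 chaperone gene hsp90aa1.2 stood at 3834, 3407 and 3583 CPM in sst1.1+ins+ and at 6321, 6118 and 6906 CPM in sst1.1+ (log2 fold change -0.84 ± 0.10, adjusted p = 0.00424). It has a close copy, hsp90aa1.1, with which reads may be shared. Stress-induced atf3 stood at 540, 407 and 445 CPM against 859, 1048 and 992 CPM (log2 fold change -1.06 ± 0.17, adjusted p = 0.0351). The groups were apart in both. The call of hsp90aa1.2 held in every alternative, while that of atf3 was lost without any 1 of the 6 libraries (adjusted p of 0.0669 to 0.216) and with levels scaled by library totals.

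The keratin krt15 stood at 34.4, 41.3 and 38.2 CPM against 94.2, 101 and 131 CPM (log2 fold change -1.52 ± 0.20, adjusted p = 0.00943). The laminin receptor subunit itga6b stood at 186, 204 and 189 CPM against 372, 389 and 371 CPM (log2 fold change -0.97 ± 0.14, adjusted p = 0.0134). Spread within the groups of itga6b was small, with an SD of 9.39 and 10.2 CPM. The gene si:busm1-57f23.1 stood at 37.4, 28.4 and 20.4 CPM against 93.3, 182 and 92.5 CPM (log2 fold change -2.09 ± 0.31, adjusted p = 0.0168). Left-out libraries ended the calls of krt15 (sst1.1+ins+ replicate 1 or 3, adjusted p up to 0.0743), itga6b (those 2 or sst1.1+ replicate 2, up to 0.0935) and si:busm1-57f23.1 (sst1.1+ins+ replicate 2 or 3 or sst1.1+ replicate 2, up to 0.115).

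Both epithelial genes belong to a list of 37 tested keratins, integrins and adhesion genes, of which they were the 2 that fell by edgeR and 0 rose. DESeq2 also called krt91 lower. For 9 of the 37 all sst1.1+ins+ libraries lay below all sst1.1+ libraries (24.3%) and for 0 above. Claudin cldnb stood at 8.08, 7.77 and 12.6 CPM against 34.5, 19.7 and 24.6 CPM (adjusted p = 0.443) and keratin krt8 at 164, 152 and 172 CPM against 201, 222 and 287 CPM (adjusted p = 0.443). The median log2 fold change of the list was -0.41. Ductal markers, with which this list shares genes (krt8, krt18, cdh1, epcam, cldnb and cldnh), gave 0 calls by edgeR, DESeq2 or limma-voom in 12 tested, with 5 at an unadjusted p under 0.05. Of the 12, 5 lay apart and lower (3 with library totals) and 1, nkx6.1, apart and higher. They summed to 625 to 872 CPM in sst1.1+ins+ and to 798 to 1121 CPM in sst1.1+, with overlap. Their part in the lower epithelial genes was not tested.

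Chaperones next to hsp90aa1.2 lay lower in sst1.1+ins+ but missed the threshold by edgeR. The inducible Hsp70 gene hsp70l stood at 7457, 4712 and 6185 CPM against 10134, 10304 and 9940 CPM (log2 fold change -0.73 ± 0.14, adjusted p = 0.0891). Its relative hsp70.3 stood at 2019, 1396 and 1518 CPM against 2748, 2861 and 2900 CPM (adjusted p = 0.0584), with near-identical copies hsp70.1 and hsp70.2 that may share its reads. The co-chaperone DNAJA4 (adjusted p = 0.0607) and the Hsp110 family member hspa4a (0.0633) lay lower by 0.87 and 0.78 on the log2 scale. Of 40 heat shock genes tested hsp90aa1.2 fell and 0 rose by edgeR, while DESeq2 called 11 lower and limma-voom 9. For 13 the groups were apart and lower in sst1.1+ins+ (32.5%), for 0 apart and higher (1 with library totals), and the median log2 fold change was -0.28.

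Immediate early genes, which respond to stimulation and to handling of cells, gave a like picture with exceptions. Of 45 tested atf3 fell and 0 rose by edgeR, while DESeq2 called 7 lower and 1 higher and limma-voom 6 lower. Of the 45, 14 lay apart and lower (31.1%), 2 apart and higher, and the median log2 fold change was -0.34. The AP-1 gene jun stood at 377, 248 and 421 CPM against 755, 728 and 641 CPM (log2 fold change -1.02 ± 0.19, adjusted p = 0.0673), and the mRNA-decay factor ZFP36 at 297, 181 and 229 CPM against 442, 495 and 422 CPM (adjusted p = 0.0728). The AP-1 partner fosab (ENSDARG00000031683, a symbol that the table gives to a further, weakly expressed identifier) did not share this, at 1406, 1637 and 1330 CPM against 1708, 1408 and 1381 CPM (log2 fold change -0.04 ± 0.13, adjusted p = 1).

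Of 48 ER stress genes tested 0 were called by edgeR, with 9 at an unadjusted p under 0.05. DESeq2 and limma-voom both called hspa5, herpud1, ddit3 and hsp90b1 lower. The ER chaperone hspa5 stood at 1862, 1628 and 1588 CPM against 3297, 2824 and 2148 CPM (log2 fold change -0.70 ± 0.15, adjusted p = 0.122). The ER degradation factor herpud1 stood at 69.2, 53.9 and 44.6 CPM against 116, 126 and 124 CPM (adjusted p = 0.256), and the stress factor ddit3 at 93.0, 112 and 59.0 CPM against 176, 154 and 152 CPM (adjusted p = 0.299). For 18 of the 48 the groups were apart and lower in sst1.1+ins+ (37.5%), and for 1, the ER oxidase ero1lb, apart and higher. The number that lay lower was 13 with library totals. The median log2 fold change was -0.38.

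**Figure D3:**
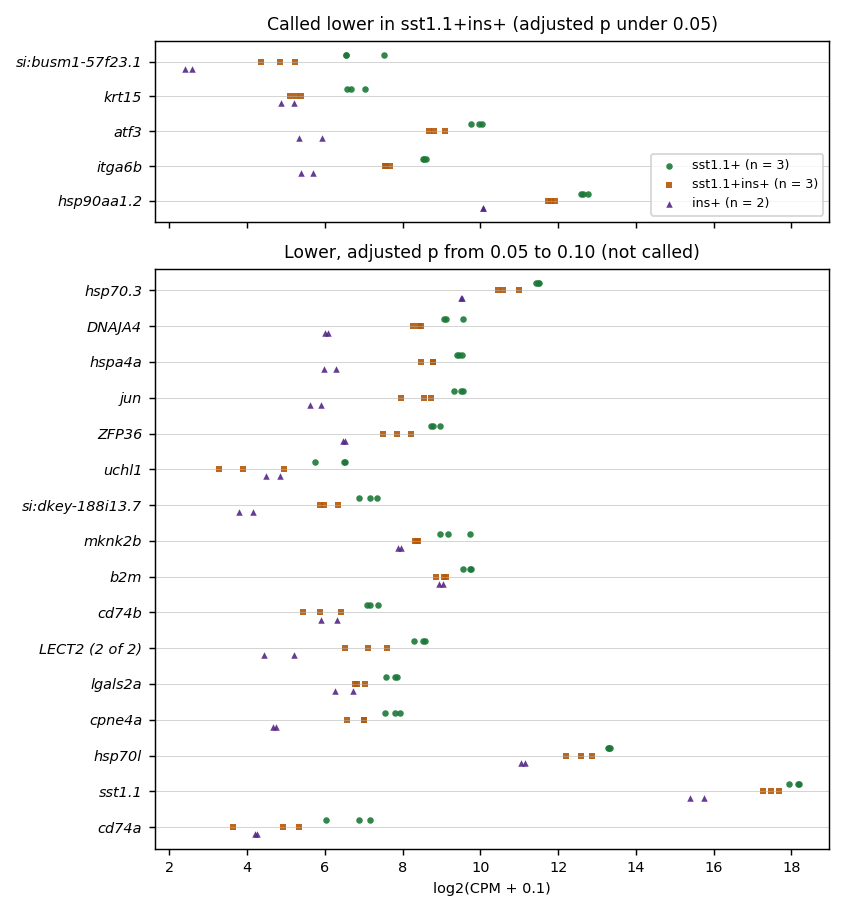
Level of the 5 genes called lower (upper panel) and of 16 of the 17 genes that lay lower with an adjusted p from 0.05 to 0.10 (lower panel, not called), as log2(CPM + 0.1) on the horizontal axis, with 1 point for each sst1.1+ (green), sst1.1+ins+ (orange) and ins+ (purple) library. Green points lie to the right of orange points in every row, with hsp70.3, hsp70l and jun among those that missed the threshold. The rows were chosen by their adjusted p, so this separation adds no support.

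Of 7 delta-cell and 6 alpha-cell genes tested edgeR called 0, with 3 of each list at an unadjusted p under 0.05. DESeq2 called sst1.1, dkk3b, HHEX and gcga lower, and limma-voom sst1.1 and dkk3b. Of the delta-cell genes 3 lay apart and lower in sst1.1+ins+, namely sst1.1, dkk3b and HHEX, and 1, the ghrelin receptor ghsra, apart and higher. The secreted Wnt modulator dkk3b stood at 3805, 4614 and 4265 CPM against 6499, 6492 and 6274 CPM (log2 fold change -0.60 ± 0.14, adjusted p = 0.169). The delta-cell factor HHEX stood at 31.2, 34.6 and 32.0 CPM against 80.3, 49.1 and 56.8 CPM (log2 fold change -0.93 ± 0.24, adjusted p = 0.224). The other somatostatin genes varied more within groups than between them. The level of sst1.2 was 17834, 39715 and 26451 CPM against 39763, 19183 and 23799 CPM, and that of sst2 9191, 28416 and 14706 CPM against 24338, 7508 and 9183 CPM. Their log2 fold changes of 0.02 ± 0.28 and 0.35 ± 0.43 turned negative without sst1.1+ins+ replicate 2.

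Glucagon transcripts were present in all 6 libraries. The gene gcga stood at 16062, 16288 and 20198 CPM in sst1.1+ins+ and at 19881, 40463 and 39701 CPM in sst1.1+ (log2 fold change -0.93 ± 0.23, adjusted p = 0.196). Its copy gcgb stood at 8382, 8652 and 13892 CPM against 13790, 25485 and 25250 CPM (adjusted p = 0.393), and the alpha-cell factor arxa at 6.38, 3.69 and 9.56 CPM against 10.8, 14.7 and 13.6 CPM (adjusted p = 0.686). Replicate 1 of sst1.1+ had about the glucagon level of the highest sst1.1+ins+ library, so the groups overlapped for both glucagon genes but not for arxa. Of the list of other gut and islet peptides 5 were tested, 0 called and 0 apart (1 apart and lower with RLE scaling). With edgeR 1 had an unadjusted p under 0.05, and DESeq2 and limma-voom called 0. Ghrelin (ghrl) stood at 49.8, 251 and 3946 CPM in sst1.1+ins+ and at 201, 82.5 and 2593 CPM in sst1.1+. The incretin gip stood at 5057, 11524 and 39.8 CPM against 5935, 15079 and 4628 CPM. Both varied widely within both groups, and between the ins+ libraries, which held 4791 and 106 CPM of ghrl and 1931 and 44.2 CPM of gip.

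Cell cycle genes lay mostly higher in sst1.1+ins+ and were uneven among libraries. Of 40 tested 0 were called by edgeR, DESeq2 or limma-voom, with 3 at an unadjusted p under 0.05. Of the 40, 34 had a positive log2 fold change, beside 8218 of all 16418 genes tested, and the median was 0.51. For 5 the groups were apart and higher (12.5%) and for 0 apart and lower. The tubulin regulator stmn1a stood at 180, 271 and 353 CPM against 148, 140 and 65.2 CPM (log2 fold change 1.19 ± 0.36, adjusted p = 0.381), the ribonucleotide reductase subunit rrm2 at 13.3, 27.8 and 12.5 CPM against 5.74, 6.99 and 8.70 CPM (adjusted p = 0.549) and the chromatin protein hmgb2a at 389, 383 and 520 CPM against 313, 337 and 193 CPM (adjusted p = 0.577). The proliferation marker mki67 overlapped, at 39.0, 42.1 and 83.1 CPM against 19.9, 46.2 and 11.4 CPM. Replicate 3 held the highest level of stmn1a, hmgb2a and mki67 in sst1.1+ins+ and the lowest in sst1.1+.

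Of the remaining lists, 82 ribosomal protein genes gave 0 calls by edgeR, 4 apart and higher, 0 apart and lower and a median of -0.01. By edgeR, 0 of 54 proteasome genes were called and 5 lay apart and lower (9.26%), or 3 with library totals or with totals without hormone and mitochondrial genes. Among 30 progenitor and Notch genes 0 and 4 (13.3%), and among 24 p53 response genes 0 were called with 2 apart in each direction (1 lower with library totals). At an unadjusted p under 0.05 there were 0 ribosomal, 0 proteasome, 1 progenitor and Notch and 4 p53 response genes. Of these lists DESeq2 called 2 genes, tp53inp1 and gadd45ba, and limma-voom 0. The p53 target tp53inp1 stood at 77.8, 55.5 and 60.0 CPM against 36.4, 26.4 and 30.0 CPM (adjusted p = 0.127). In all, 15 of the 34 called genes stood on a list and 19 on none, and 12 of the 33 lists held a called gene.

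**Figure D4:**
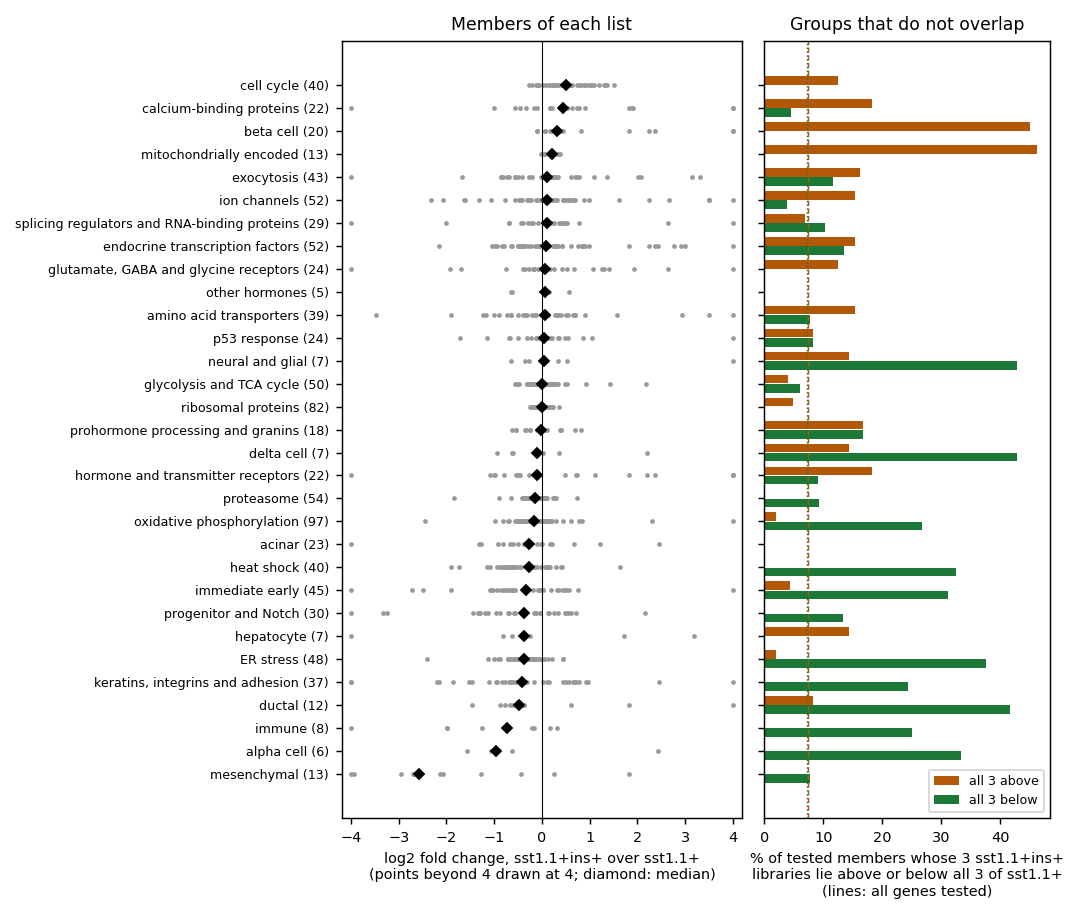
Left, log2 fold change of sst1.1+ins+ over sst1.1+ for the tested members of 31 lists with at least 5 tested genes (grey points, drawn at 4 when beyond it, with the median as a diamond and the number tested in brackets). Right, percentage of the members whose 3 sst1.1+ins+ libraries lie all above (orange) or all below (green) the 3 sst1.1+ libraries, beside lines for all genes tested at 7.39% and 7.27%. Beta-cell and mitochondrially encoded genes have long orange bars. Delta-cell and neural and glial genes (3 of 7 tested each) and ductal genes (5 of 12) have the longest green bars. ER stress, alpha-cell, heat shock and immediate early genes come next.

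A further 31 genes had an adjusted p from 0.05 to 0.10, of which 14 lay higher and 17 lower in sst1.1+ins+. All 31 were called by DESeq2 and 25 by limma-voom. Beside those given above, the growth factor vegfab stood at 308, 276 and 245 CPM against 177, 155 and 140 CPM (adjusted p = 0.0691), the fatty acid oxidation enzyme eci2 at 89.9, 83.0 and 94.0 CPM against 49.2, 43.9 and 50.3 CPM (0.0663) and the phospho-lyase etnppl at 51.5, 35.3 and 51.7 CPM against 19.2, 16.7 and 19.6 CPM (0.0670). The groups did not overlap in these genes. The importin kpna6 stood at 6.92, 5.95 and 11.4 CPM against 0.302, 0.650 and 0.574 CPM (0.0874). DNA ligase lig4 had 0 counts in all sst1.1+ libraries and 350, 11 and 103 counts in sst1.1+ins+, at least 51.4-fold higher against the floor (0.0908), or at least 19.9-fold without sst1.1+ins+ replicate 1. Also higher without a call were cited4a, znf395, zgc:66447, si:dkey-152p16.6, si:dkey-106c17.3 and si:dkey-166k9.2, with log2 fold changes of 0.70 to 1.74.

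Among those lower, the ubiquitin hydrolase uchl1 stood at 14.7, 30.5 and 9.56 CPM against 90.9, 89.8 and 53.1 CPM (log2 fold change -2.09 ± 0.39, adjusted p = 0.0728). The chemotaxin gene LECT2 (2 of 2) stood at 91.9, 192 and 137 CPM against 312, 367 and 382 CPM (0.0874), the kinase mknk2b at 332, 321 and 336 CPM against 495, 572 and 848 CPM (0.0798) and the copine cpne4a at 128, 95.5 and 129 CPM against 222, 185 and 245 CPM (0.0882). All libraries of sst1.1+ins+ were below those of sst1.1+ in these genes. The galectin lgals2a and si:dkey-188i13.7 lay lower by 0.87 and 1.06 on the log2 scale.

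The remaining 3 genes near the threshold serve antigen presentation. The light chain b2m of MHC class I stood at 537, 466 and 556 CPM against 746, 853 and 862 CPM (log2 fold change -0.66 ± 0.13, adjusted p = 0.0817). The invariant chain genes cd74a (12.3, 30.2 and 40.0 CPM against 117, 65.1 and 144 CPM, adjusted p = 0.0917) and cd74b (42.9, 58.3 and 85.0 CPM against 143, 135 and 166 CPM, adjusted p = 0.0841) also lay apart and lower. Of 25 immune markers, which include both cd74 genes, 8 were tested. Of these edgeR called 0, with 3 at an unadjusted p under 0.05, while DESeq2 and limma-voom both called cd74a and cd74b lower. The summed level of the 25 was 157 to 242 CPM in sst1.1+ins+ and 278 to 418 CPM in sst1.1+. Without cd74a, cd74b and grn1 the other 22 markers summed to 3.79 to 5.35 CPM and 5.08 to 8.57 CPM, and lcp1, mpeg1.2, marco, cxcr3.2, mhc2dab, cd4 and ccl34b.1 had 0 counts in all 6 libraries.

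Acinar markers summed to 99.7 to 179 CPM in sst1.1+ins+ and 97.6 to 274 CPM in sst1.1+, endothelial markers to 0.660 to 1.93 CPM and 0.537 to 3.13 CPM, and hepatocyte markers to 12.5 to 45.2 CPM and 15.7 to 55.2 CPM. Erythrocyte markers, of which 1 was tested, summed to at most 2.09 CPM in sst1.1+ins+ and 1.75 CPM in sst1.1+. Mesenchymal markers summed to 14.8 to 30.8 CPM against 23.8 to 136 CPM, the highest in replicate 3 of sst1.1+. Neural and glial markers, of which sox10, plp1a and nefmb had 0 counts, summed to 475 to 532 CPM against 533 to 600 CPM without overlap. Of 7 tested, 3 lay apart and lower, or 1 with library totals, and 1, mpz at up to 1.70 CPM, lay apart and higher. Of the 7, 4 had a positive log2 fold change, and the median was 0.04. These lists had 0 calls by edgeR, DESeq2 or limma-voom among 53 tested members, with 1 mesenchymal and 1 neural or glial gene at an unadjusted p under 0.05, and the part of these cell types in the results was not tested.

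The ins+ libraries give the same genes a further level. The comparison of sst1.1+ins+ with ins+ shares the sst1.1+ins+ libraries with the one above, so each gene's values are set side by side and nothing is read from their match. In that comparison 151 genes were called (0.92%). For ins the ins+ libraries stood at 235511 and 256894 CPM, a log2 fold change of sst1.1+ins+ over ins+ of -1.02 ± 0.21 (adjusted p = 0.0497). That call was lost without any sst1.1+ins+ library (adjusted p of 0.133 to 0.214) or without sst1.1+ replicate 3. It held without sst1.1+ replicate 1 or 2. Without ins+ replicate 2 only 1 ins+ library is left, so only the log2 fold change of ins is given, which was -0.95. The level of abhd15a in ins+ was 253 and 242 CPM, for a log2 fold change of -0.99 ± 0.22 that did not pass (adjusted p = 0.0698), and that of ndufa4l2a was 859 and 931 CPM (-0.91 ± 0.16, adjusted p = 0.0221). For SNCG (2 of 2) ins+ stood at 386 and 427 CPM (-1.47 ± 0.20, adjusted p = 0.00454), and for gria3a at 44.8 and 62.6 CPM (-2.10 ± 0.35, adjusted p = 0.0155). For PKIB (2 of 2) ins+ stood at 96.0 and 149 CPM (-1.54 ± 0.28, adjusted p = 0.0251).

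The ins+ libraries held 21.9 and 16.6 CPM of esr1 (log2 fold change of sst1.1+ins+ over ins+ -0.09 ± 0.42, adjusted p = 0.973), 23.3 and 40.9 CPM of cabp5a (0.16 ± 0.52, adjusted p = 0.955) and 27.5 and 34.8 CPM of nell2a (-0.20 ± 0.42, adjusted p = 0.927). The errors given are 1 SE each, so differences in either direction larger than 1 SE remain possible. For mnx1 the ins+ libraries held 63.8 and 60.6 CPM (-0.84 ± 0.29, adjusted p = 0.262) and for nkx6.2 76.9 and 132 CPM (-1.22 ± 0.65, adjusted p = 0.482).

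Genes called lower against sst1.1+ were lower still in ins+, apart from the keratin. The ins+ libraries held 1063 and 1064 CPM of hsp90aa1.2 (log2 fold change of sst1.1+ins+ over ins+ 1.76 ± 0.12, adjusted p = 3.24e-05), 60.4 and 40.4 CPM of atf3 (3.202 ± 0.22, adjusted p = 3.24e-05), 51.3 and 41.9 CPM of itga6b (2.05 ± 0.16, adjusted p = 0.000116) and 5.93 and 5.22 CPM of si:busm1-57f23.1 (2.36 ± 0.38, adjusted p = 0.0133). Keratin krt15 stood at 29.0 and 36.5 CPM in ins+ and its difference did not pass (0.21 ± 0.22, adjusted p = 0.775).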

How the data were processed

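The table that the authors deposited holds raw counts of reads per gene for 8 bulk libraries. Trim Galore, HISAT2 with GRCz11 and featureCounts made it, per the submitters' processing notes. Versions, gene annotation, strandedness and the handling of reads with several alignments were not given in the sources used here. Values of overlapping, antisense or near-identical genes are therefore uncertain. The 92 ERCC rows and 1 EGFP row stayed out of totals and tests. The names table covered 26121 of the remaining 31953 identifiers. No genome or sequence table was used.

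The test was the quasi-likelihood F-test of edgeR 4.0.16 (R 4.3.3), with the default expression filter by group and TMM factors. Each group had its own mean in a fit of all 8 libraries, which left 5 residual degrees of freedom. P-values were adjusted by Benjamini-Hochberg over 16418 genes and called at 0.05. Standard errors are the size of the log2 fold change over the square root of F. Libraries held 16948429 to 30374029 gene counts, so the floor of 3 counts was 0.101 to 0.176 CPM, for counting error only. Lists were described by counts and medians.

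Named were all called genes, those with adjusted p from 0.05 to 0.10, the leading 3 genes of a list by p, and 20 genes set by name (hormones, islet factors, stress, immune and cell cycle genes). Of the genes so named, 2 are not reported here. Further list members were named after their values were seen. The comparison, the rule and the lists were chosen with earlier results of these data known. Alternatives were RLE scaling, library totals, other filters and totals without hormone and mitochondrial genes. In the fit with the last-named totals, hormone and mitochondrial genes were not tested. Further alternatives were DESeq2 1.42.0, voom with quality weights in limma 3.58.1, the 6 libraries alone, a replicate block and each of those 6 left out. The fit without ins+ replicate 2 was added after the data were seen. The fit was also run on simulated counts of independent libraries, with spreads taken from these data. That run cannot tell how far the libraries here are independent.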

Additional observations from a re-analysis of the deposited data

How the results depend on the processing

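The 34 calls (29 higher, 5 lower) became 35 with RLE scaling and 33 with library totals. With hormone and mitochondrial genes left out of both totals and test, 36 of 16374 genes were called. There 33 of the 34 were tested, without ins, and all 33 were called. The calls numbered 229 (120 higher, 109 lower) with no low-count filter and 79 (50 and 29) with at least 10 CPM in 2 libraries. DESeq2 gave 270 (158 and 112) and limma-voom 99, of which 59 were lower. Of the 34, 27 remained with limma-voom (lost were gcgra, esr1, nkx6.2, nell2a, gria3a, gabrb2 and BX005022.1) and 24 in the fit of 6 libraries, which called 24 (19 higher). Without 1 of the 6 libraries, or without ins+ replicate 2, counts ran from 19 to 39, with 17 to 29 higher and 2 to 10 lower. 12 of the 34 kept their call in every setting run and 8 lost it in 6 or more of 16, among them gria3a, gabrb2 and atf3. Same-numbered libraries deviated with correlations of 0.0125, -0.0291 and -0.0071. Such values over all genes cannot tell whether same-numbered libraries share fish or a sort. A replicate block gave 44 calls (31 higher, 13 lower), of which 31 were among the 34. Some small differences changed sign. Against sst1.1+ sst1.2 gave -0.16 with limma-voom, and left-out libraries moved it from -0.32 to 0.38, sst2 from -0.19 to 1.06, pdx1 from -0.082 to 0.19, pax6b from -0.034 to 0.18 and fosab from -0.13 to 0.063 (log2). Against ins+ cabp5a gave -0.11 with the block, and left-out libraries moved esr1 from -0.31 to 0.056, nell2a from -0.55 to 0.066 and BX005022.1 from -0.98 to 0.024. The causes were not tested. The folds of gcgra, nkx6.2, lig4 and BX005022.1 are limited by their few or absent counts in sst1.1+.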
